A study of Mus musculus with 6 samples.

Results

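Secreted and membrane-bound metalloproteases and their tissue inhibitors were followed in sorted bone marrow cells. Genes were included by their symbol, not by a measured value. They are the Adam, Adamts, Adamtsl and Mmp genes with a numbered symbol and Timp1 to Timp4, without Mmp8, Mmp9 and Mmp13. Of the 18193 genes that the array names through probe sets of a single symbol, 67 met this rule, and 120 probe sets stood for them. They comprised 15 Mmp, 4 Timp, 28 Adam, 15 Adamts and 5 Adamtsl genes.

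All animals were C57BL/6J-background mice of genotype Grem1;TdTomato, 6 to 8 weeks old, kept under pathogen-free conditions and given tamoxifen by mouth, so both groups share the reporter genotype and the drug. Digested marrow of 3 such mice was sorted into a Grem1+ fraction and a Grem1- fraction, which gave 3 arrays per group and a matched pair for every mouse. The Grem1- fraction was non-recombined and gated against CD45, CD31 and Ter-119, and the labels give that gate for this fraction only. As background, a tamoxifen-induced reporter records recombination at the time of the drug, which need not match Grem1 transcript at harvest.

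Matrix metalloproteinases (MMPs) are zinc proteases that cut collagens, proteoglycans and other matrix proteins. ADAMs are membrane-anchored relatives that release the outer parts of surface proteins, ADAMTS proteases are secreted and cut aggrecan, procollagens and other matrix proteins, and ADAMTS-like proteins lack the protease domain. TIMPs bind the active site of these enzymes and block it. In cartilage and bone the families take part in matrix turnover, in growth plate remodelling and in aggrecan loss.

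Some facts of the arrays bear on every comparison. Array medians were 3.74 to 3.81 on the log2 scale. The sorted gene Grem1 stood at 3.69 to 3.75 in Grem1- and at 4.49, 4.14 and 8.61 in Grem1+, and did not pass the test (limma adjusted p = 0.248). All its Grem1- arrays were below log2 4, so only a bound is given. With values below log2 4 set to 4, Grem1 was at least 3.36-fold higher in Grem1+, and at least 1.25-fold without mouse 3. Ptprc, the gene of CD45, stood at 11.78 to 12.37 in Grem1- despite the gate. In the Grem1+ fractions of mice 1, 2 and 3 it stood at 7.29, 9.61 and 10.56, and it did not pass (limma adjusted p = 0.0609). Of 9 pan-haematopoietic markers 9 were measured and 6 were lower in Grem1+, with median levels per array of 9.79 to 10.7 in Grem1- and 6.45 to 6.59 in Grem1+. Their summed level, as log2, was 14.35 to 14.47 and 12.02 to 12.95, and only Cd48 was below log2 4 on all Grem1+ arrays. Of 12 chondrocyte markers 11 were higher in Grem1+, with medians of 6.96 to 7.81 and 11.21 to 11.46 and summed levels of 12.44 to 12.93 and 15.15 to 15.39. Other stromal lists had higher members as well: 3 of 6 measured osteoblast and 3 of 7 fibroblast and tendon markers. So did 2 of 6 smooth muscle and pericyte and 1 of 3 niche stroma markers, with 0 lower in each list. Of 4 measured endothelial markers 0 were higher and 0 lower. Over all genes tested 11.7% were higher and 8.51% lower. For Gapdh, the 3' control probe set exceeded the 5' one, a sign of RNA shortening, by 2.66 ± 0.34 on the Grem1- arrays and by 3.58 ± 0.51 on the Grem1+ arrays (SD on the log2 scale, n = 3). For actin the same difference was 0.16 ± 0.02 and 0.09 ± 0.11. Xist stood at 11.04 and 10.6 in both fractions of mouse 3 and at no more than 2.99 elsewhere, although all animals are labelled male. Without mouse 3, 7 of the 11 genes reported below as higher differed by 2.11 (Mmp23) to 4.33 (Timp1), and Adam10 differed by -1.76. The other 4 then had only dim Grem1- arrays, and with values below log2 4 set to 4 Mmp3 was at least 26.4-fold, Adamts3 at least 15.9-fold, Mmp10 at least 13.4-fold and Mmp16 at least 3.26-fold higher. The part of these features in the results below was not tested. In such bulk samples, fewer cells of a type and less RNA per cell cannot be told apart.

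Of the 67 genes, 33 were tested, because a probe set exceeded log2 4 on at least 3 of the 6 arrays, a limit set by choice rather than by a measured detection level; values below it are called dim. In Grem1+ 11 of the 33 were higher and 1 was lower than in Grem1- (limma with the mouse as a block, Benjamini-Hochberg adjusted p under 0.05 over all genes). The background over all 10151 genes was 11.7% in the higher and 8.51% in the lower direction, 20.2% together. The higher genes were Mmp2, Mmp3, Mmp10, Mmp16, Mmp23, Timp1, Timp3, Adamts1, Adamts3, Adamts5 and Adam9, and the lower gene was Adam10. The median difference of the 33 genes was 1.04 on the log2 scale, against 0.04 over all genes tested. Each of the 12 differences had the same sign in all 3 mice, which is no separate support, because the blocked fit favours such genes. The 3 Grem1+ arrays lay above the 3 Grem1- arrays for 17 of the 33 genes, against 23.2% of all genes, and below them for 3, against 19.8% (43.1% of all genes in either direction). Mmp3, Mmp10, Mmp16 and Adamtsl2 passed the filter only through their Grem1+ arrays. For these genes the sign in each mouse and the lack of overlap were fixed in advance.

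These counts depend in part on the filter. Of the 11 higher genes 3, Mmp3, Mmp10 and Mmp16, entered the test only through their Grem1+ arrays and so could only lie higher. Without any filter all 67 genes were tested, and 8 were higher and 1 lower. In that fit Adamts3, Mmp23 and Adam9 lost their calls, while Mmp3, Mmp10 and Mmp16 kept theirs (limma adjusted p = 0.026, 0.017 and 0.038). The background was then 4.56% higher and 2.75% lower, 7.31% together, of 18193 genes, and the median over the 67 genes was 0.15. In fits to 2 mice with the block, limma called 0 of the 33 genes, and 13, 16 and 15 of them had an unadjusted p under 0.05 without mouse 1, 2 and 3. In these fits 0 of all 10151 genes were called, and 3018, 2919 and 2881 had an unadjusted p under 0.05. Unblocked fits to 2 mice called 9, 7 and 9 of the 33 when mouse 1, 2 and 3 was dropped, all in the higher direction. Adam9, Mmp23 and Adam10 were called in none of these unblocked fits, and Adamts5, Mmp2 and Mmp16 lost their call without mouse 2.

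**Figure D1:**
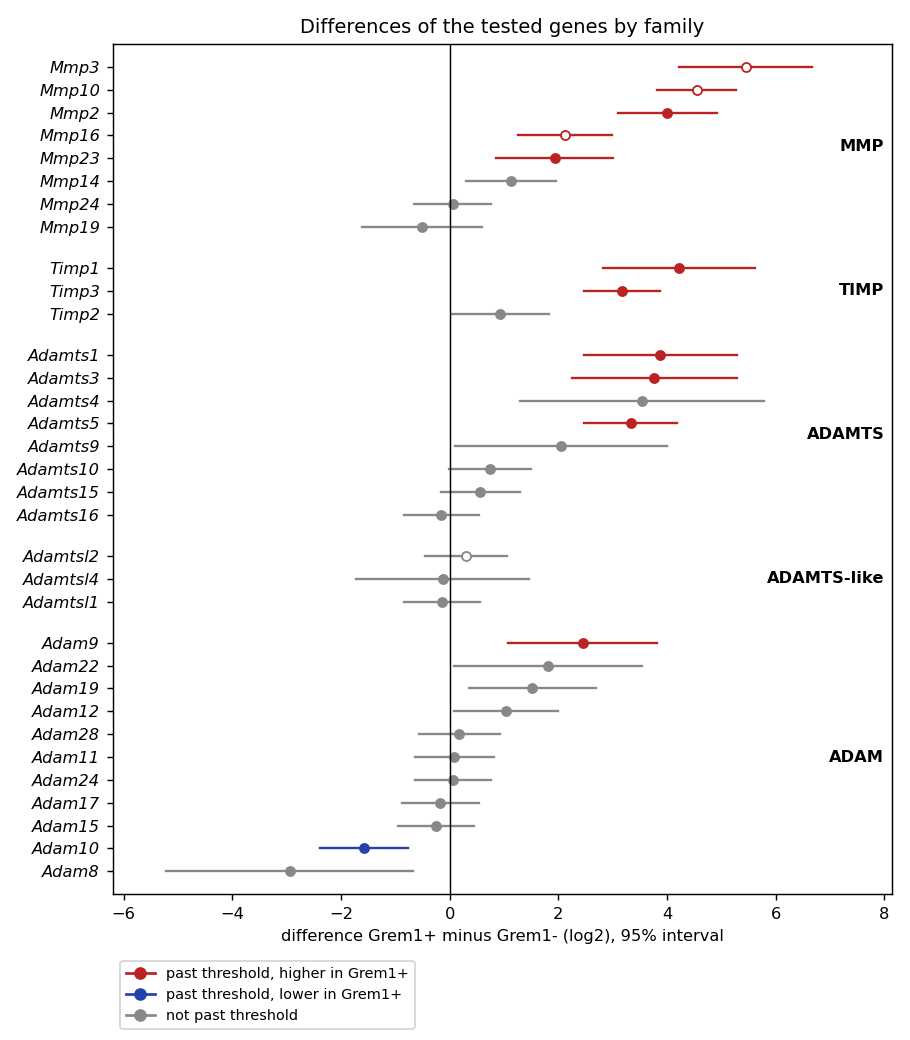
Difference between Grem1+ and Grem1- (log2) of the 33 tested genes, ordered by family; points are limma estimates with the mouse as a block and lines are 95% confidence intervals (3 mice). Red genes passed the threshold in the higher direction, the blue gene Adam10 passed in the lower direction, and grey genes did not pass. Open circles mark Mmp3, Mmp10, Mmp16 and Adamtsl2, whose Grem1- arrays were all below log2 4, so that their fitted position is not a measured size.

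Of 15 Mmp genes 8 were tested, and 5 were higher in Grem1+ and 0 lower, against 11.7% higher and 8.51% lower over all genes. Among these 5, Mmp3, Mmp10 and Mmp16 entered the test only through their Grem1+ arrays and could only come out higher. The stromelysins Mmp3 and Mmp10 cut proteoglycans, fibronectin and other matrix proteins and activate other MMPs. They lie close together in a cluster of MMP genes: in the RefSeq gene table (assembly GRCm38.p6) Mmp13, Mmp12, Mmp1b, Mmp3, Mmp1a, Mmp10, Mmp8, Mmp27, Mmp20 and Mmp7 follow each other with 0 other protein-coding genes between them. The sequences shown are the 250 bases before a RefSeq start (GRCm38.p6) of 4 of these genes. All 4 hold the letters of an AP-1 site and of a TATA box, while 2 were high in Grem1+ and 2 were dim on every array. Mmp1b also holds both and was dim on every array, and its window is not printed. Capitals mark TGAGTCA and TATAAA.
Mmp3, chr9:7445572-7445821 (+ strand): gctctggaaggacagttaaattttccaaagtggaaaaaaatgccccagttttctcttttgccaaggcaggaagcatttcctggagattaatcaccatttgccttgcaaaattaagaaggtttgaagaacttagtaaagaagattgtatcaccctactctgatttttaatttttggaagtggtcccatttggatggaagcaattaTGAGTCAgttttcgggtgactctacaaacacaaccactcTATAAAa
Mmp10, chr9:7502092-7502341 (+ strand): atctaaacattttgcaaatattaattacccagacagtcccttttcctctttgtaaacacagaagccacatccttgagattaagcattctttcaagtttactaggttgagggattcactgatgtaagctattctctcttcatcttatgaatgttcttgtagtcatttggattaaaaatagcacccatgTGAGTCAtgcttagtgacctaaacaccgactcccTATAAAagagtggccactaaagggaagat
Mmp1a, chr9:7463891-7464140 (+ strand): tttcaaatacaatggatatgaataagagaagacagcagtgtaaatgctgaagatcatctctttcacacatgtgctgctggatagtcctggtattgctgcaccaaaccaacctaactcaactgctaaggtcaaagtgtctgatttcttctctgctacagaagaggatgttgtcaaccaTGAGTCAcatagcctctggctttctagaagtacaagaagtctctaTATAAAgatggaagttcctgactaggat
Mmp7, chr9:7691840-7692089 (+ strand): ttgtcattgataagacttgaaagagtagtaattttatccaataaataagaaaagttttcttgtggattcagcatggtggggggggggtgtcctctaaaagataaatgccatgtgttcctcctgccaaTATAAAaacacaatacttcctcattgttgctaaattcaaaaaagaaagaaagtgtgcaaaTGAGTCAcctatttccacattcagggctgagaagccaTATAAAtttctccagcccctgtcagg

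The TGAGTCA run begins 46 bases before the annotated start in Mmp3 and 63 bases before it in Mmp10. In Mmp1a it begins 73 bases before the start, and in Mmp7 63 bases before it. The TATAAA run begins 7 bases before the start in Mmp3, 29 in Mmp10 and 28 in Mmp1a. Mmp7 has 2 such runs, the first 123 bases before the start. Mmp7 has a second RefSeq start, whose window, chr9:7692091-7692340, holds neither motif. Letters searched were TGAGTCA or TGACTCA for AP-1 and TATAAA or its reverse complement TTTATA for the TATA box, which covers both strands. Of 32851 RefSeq windows of this length, 4.46% held the AP-1 letters, 12.4% the TATA letters and 0.721% both. Windows were found for 39 of the 67 genes, 44 windows in all, and 5 of these held both motifs, those of Mmp1a, Mmp1b, Mmp3, Mmp7 and Mmp10. Among the 11 genes higher in Grem1+, 7 had a window, and only those of Mmp3 and Mmp10 held both. A match of letters is a description and not a measured binding site.

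Mmp3 stood at 3.75, 3.53 and 3.75 in the Grem1- fractions of mice 1, 2 and 3 and at 9.49, 7.95 and 9.92 in their Grem1+ fractions (log2, as are all levels and differences below). No Grem1- array exceeded log2 4, so the filter left no room for the groups to overlap. With values below log2 4 set to 4, Mmp3 was at least 34.8-fold higher in Grem1+. Its limma adjusted p of 0.0104 is from the fit to the values as deposited, as are those given beside other bounds. Mmp10 stood at 3.52, 3.04 and 3.22 in Grem1- and at 7.82, 7.68 and 7.93 in Grem1+. The Grem1+ arrays lay close together (SD 0.13, n = 3) and every Grem1- array was dim. Mmp10 was at least 14-fold higher (adjusted p = 0.00906 in the fit to the deposited values).

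Mmp1a and Mmp1b, the rodent counterparts of interstitial collagenase, the matrilysin Mmp7, the macrophage elastase Mmp12 and the enamel protease Mmp20 were below log2 4 on all 6 arrays and were not tested. Of the excluded genes of the cluster, the collagenase Mmp13 was higher in Grem1+ by 4.24 (SE 0.38, adjusted p = 0.0117), and the neutrophil collagenase Mmp8 was lower (-5.73, SE 0.52, adjusted p = 0.0116). Of the Grem1+ arrays of Mmp8 only that of mouse 3 exceeded log2 4, and with values below it set to 4 the difference was -4.90.

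The gelatinase Mmp2, which cuts denatured collagen and collagen IV, stood at 5.30, 4.46 and 3.31 in Grem1- and at 8.72, 8.55 and 7.82 in Grem1+. Every Grem1+ array lay well above the Grem1- arrays, the lowest of which was dim. The difference was 4.01 (SE 0.33, adjusted p = 0.0107), and 3.78 with values below log2 4 set to 4. A second probe set of Mmp2 gave 3.82.

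Of the membrane-type MMPs, which act at the cell surface, Mmp14, Mmp16, Mmp17 and Mmp24 were on the array with a single symbol. Mmp16 stood at 3.91, 3.73 and 3.74 in Grem1- and at 5.57, 5.84 and 6.36 in Grem1+. It was at least 3.79-fold higher (adjusted p = 0.0228 in the fit to the deposited values), and its 3 other probe sets exceeded log2 4 on at most 2 arrays. Mmp14, which activates the proform of Mmp2 and cuts fibrillar collagen, did not pass on the probe set with the highest mean. There it differed by 1.14 (95% interval 0.31 to 1.97, adjusted p = 0.0726). On the probe set with the largest variance it differed by 2.54 and passed (adjusted p = 0.0363), and averaging its passing probe sets gave 1.84 and a call as well (adjusted p = 0.0268). Mmp24 differed by 0.06 (95% interval -0.65 to 0.76), and Mmp17 was not tested.

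Mmp23, a type II membrane protein among the MMPs, stood at 5.30, 5.07 and 4.06 in Grem1- and at 8.10, 6.48 and 5.66 in Grem1+. The groups did not overlap, but the Grem1+ arrays of mice 1 and 3 were further apart than the group means. The difference was 1.94 (SE 0.39, adjusted p = 0.0416), and the call was lost without the replicate block (adjusted p = 0.0883) and without the filter (adjusted p = 0.0777). Mmp19 differed by -0.51 (95% interval -1.62 to 0.60, adjusted p = 0.445). Stromelysin 3, Mmp11, was not tested.

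**Figure D2:**
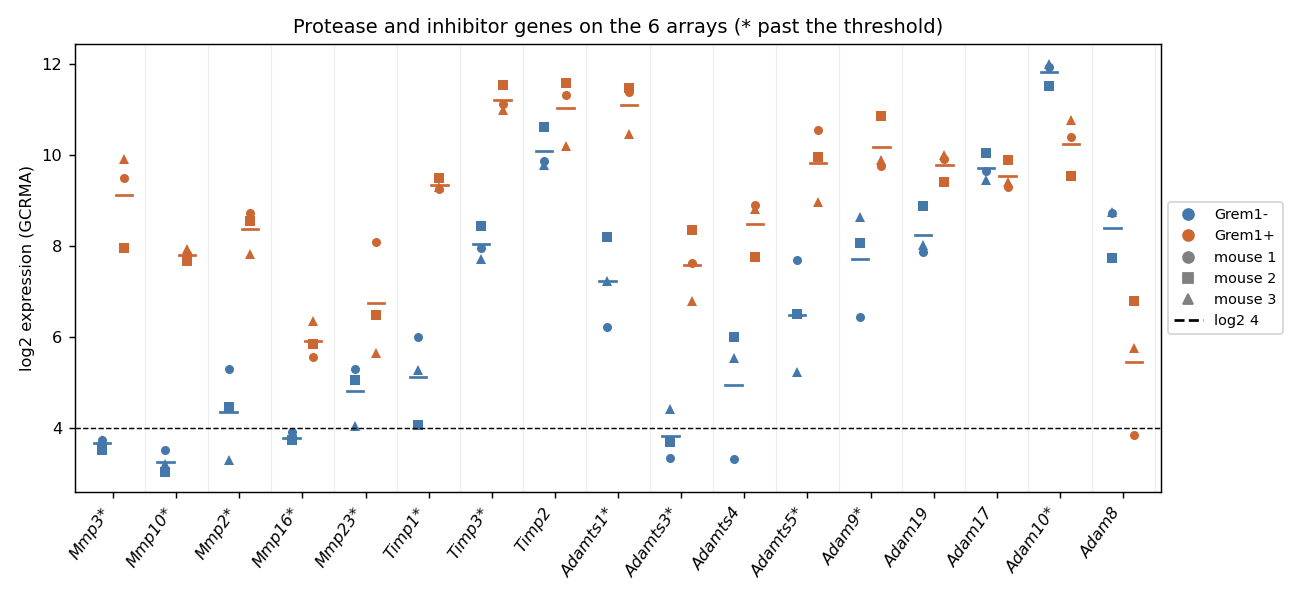
Log2 expression of the 17 tested genes that passed the threshold, are TIMPs or averaged at least log2 8 in a group. Each point is an array, blue for Grem1- and orange for Grem1+, the shape gives the mouse, short lines are group means, the dashed line is log2 4 and asterisks mark genes past the threshold; Mmp3 and Mmp10 sit below log2 4 in all Grem1- arrays, and Adam10 is the gene past the threshold that is lower in Grem1+.

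Among the inhibitors, Timp1 and Timp3 rose and Timp2 did not pass. Timp1, a secreted inhibitor of most MMPs, stood at 6.00, 4.08 and 5.28 in Grem1- and at 9.26, 9.49 and 9.29 in Grem1+. Grem1+ arrays lay close together and the Grem1- arrays were spread, lowest in mouse 2. The difference was 4.23 (SE 0.51, adjusted p = 0.0166), and 3.63 without mouse 2. Timp3, which binds to the matrix and also inhibits several ADAM and ADAMTS proteases, stood at 7.96, 8.45 and 7.71 in Grem1- and at 11.12, 11.53 and 10.98 in Grem1+. It was higher by 3.17 (SE 0.25, adjusted p = 0.0101), with nearly the same difference in each mouse, 3.16, 3.09 and 3.27. All 4 probe sets of Timp3 passed the filter, and they ranged from 2.94 to 5.37.

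Timp2, which inhibits MMPs and also helps Mmp14 to activate Mmp2, stood at 9.87, 10.62 and 9.79 in Grem1- and at 11.31, 11.57 and 10.2 in Grem1+. The Grem1+ array of mouse 3 lay below the Grem1- array of mouse 2, so the groups overlapped. The difference was 0.93 (95% interval 0.04 to 1.83, adjusted p = 0.127). Its 6 passing probe sets ranged from 0.11 to 1.52, and the most variable of them passed (adjusted p = 0.0468). Timp4 was dim on all 6 arrays on both of its probe sets, at 3.02, 3.67 and 2.77 in Grem1- and 2.84, 2.73 and 3.42 in Grem1+ on the brighter of them.

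Of the ADAMTS proteoglycanases, which cut aggrecan and versican, 7 were on the array and 5 were tested. Adamts1 and Adamts5 were higher in Grem1+ (background 11.7%), and Adamts4 missed the threshold. Adamts1 and Adamts5 are direct neighbours in the RefSeq table, with 0 protein-coding genes between them. Adamts1 stood at 6.22, 8.20 and 7.24 in Grem1- and at 11.38, 11.46 and 10.45 in Grem1+. The groups were more than log2 2 apart. It differed by 3.88 (SE 0.51, adjusted p = 0.0189), and by 3.23 without mouse 1.

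Adamts5, the main aggrecanase of mouse cartilage, stood at 7.70, 6.52 and 5.24 in Grem1- and at 10.54, 9.95 and 8.97 in Grem1+. In both fractions mouse 1 was highest and mouse 3 lowest. The difference was 3.33 (SE 0.31, adjusted p = 0.0122), and the 4 passing probe sets ranged from 1.37 to 3.33. Adamts4, the other well-studied aggrecanase, stood at 3.32, 6.00 and 5.54 in Grem1- and at 8.90, 7.76 and 8.81 in Grem1+. The groups did not overlap, and the differences by mouse were uneven, at 5.58, 1.75 and 3.28. Its difference of 3.54 (95% interval 1.29 to 5.78) did not pass (adjusted p = 0.0545), and it passed under 6 of 14 alternatives, among them without the replicate block (adjusted p = 0.0190). The difference of Adamts4 was 2.51 without mouse 1 and 4.43 without mouse 2.

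Adamts9 differed by 2.05 (95% interval 0.09 to 4.01, adjusted p = 0.127). By mouse its differences were 2.42, 0.24 and 3.48, so that it differed by 2.95 without mouse 2 and by 1.33 without mouse 3. Adamts15 differed by 0.56 (95% interval -0.16 to 1.29, adjusted p = 0.217). Adamts8 and Adamts20 were below log2 4 on all arrays. Adamts3, an N-propeptidase known for trimming procollagen II and for processing the lymphatic growth factor VEGF-C, stood at 3.35, 3.71 and 4.42 in Grem1- and at 7.62, 8.35 and 6.79 in Grem1+. Only the Grem1- array of mouse 3 exceeded log2 4 in its group. Adamts3 was higher by 3.77 (SE 0.55, adjusted p = 0.0223), and by 3.45 with values below log2 4 set to 4, and it was at least 15.9-fold higher without mouse 3, when both remaining Grem1- arrays were dim. Without the filter its adjusted p was 0.0546.

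Adamts7 was below log2 4 on all arrays, and Adamts12, which like Adamts7 cuts the cartilage protein COMP, exceeded it on 1 array, the Grem1- array of mouse 1. Adamts10, which binds fibrillin, differed by 0.74 (95% interval -0.01 to 1.49, adjusted p = 0.143) and Adamts16 by -0.16 (95% interval -0.85 to 0.54). Of the ADAMTS-like genes, Adamtsl1, Adamtsl2 and Adamtsl4 differed by -0.13, 0.30 and -0.13 and did not pass (adjusted p-values of 0.761, 0.508 and 0.907). Without mouse 2 the difference of Adamtsl4 was 0.62. Adamtsl3 exceeded log2 4 on 2 Grem1+ arrays, at 5.23 and 4.81, and was not tested.

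In the ADAM family 9 genes of body tissues are held to be active proteases, and 8 of them were tested. Adam9, a sheddase of wide expression, was the 1 higher gene and Adam10 the 1 lower gene (background 11.7% and 8.51%). The median difference of the 8 was 0.004, and counts this small do not set them apart from all genes. Adam9 stood at 6.44, 8.06 and 8.64 in Grem1- and at 9.75, 10.86 and 9.89 in Grem1+. The groups did not overlap. The difference was 2.45 (SE 0.50, adjusted p = 0.0424), 3.05 without mouse 3, and without the filter the call was lost (adjusted p = 0.0915).

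Adam10, the sheddase that starts Notch receptor activation, stood at 11.93, 11.52 and 11.99 in Grem1- and at 10.39, 9.55 and 10.77 in Grem1+. Every Grem1+ array was lower than every Grem1- array while all remained far above log2 4. The difference was -1.58 (SE 0.29, adjusted p = 0.0347), and the 3 passing probe sets ranged from -2.97 to -1.58. Adam17, the close relative that sheds TNF and EGF receptor ligands, stood at 9.64, 10.04 and 9.44 in Grem1- and at 9.30, 9.89 and 9.41 in Grem1+. These ranges overlapped nearly fully. Adam17 differed by -0.17 (95% interval -0.88 to 0.53, adjusted p = 0.686). Whether the differences of Adam10 and Adam17 differ from each other was not tested.

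Adam8, a protease of leukocytes and osteoclasts, stood at 8.72, 7.75 and 8.74 in Grem1- and at 3.85, 6.78 and 5.75 in Grem1+. The groups did not overlap, and mouse 2 showed the smallest gap, of -0.96, against -4.87 and -2.99 in mice 1 and 3. The difference of -2.94 (95% interval -5.21 to -0.67) missed the threshold (adjusted p = 0.0818), and an unblocked fit called it (adjusted p = 0.0359). It was -1.98 without mouse 1 and -3.93 without mouse 2. Beside Adam8 and Adam10, the granulocyte markers had medians of 11.26 to 11.44 on the Grem1- arrays, against 7.14 to 9.48 in Grem1+. Of 8 measured, 5 were lower in Grem1+ (background 8.51%). Other blood lineages were lower as well: 2 of 3 measured monocyte and macrophage, 3 of 5 B lineage, 2 of 4 erythroid and 1 of 2 megakaryocyte markers. Of 2 measured osteoclast markers 0 were lower. Cd79b, Vpreb1 and Rag1 of the B lineage list and Hemgn of the erythroid list were dim on every Grem1+ array and could only lie lower. The part of these cell types in the differences of Adam8 and Adam10 was not tested.

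Adam19, a member that sheds neuregulins, stood at 7.87, 8.87 and 8.02 in Grem1- and at 9.90, 9.41 and 10 in Grem1+. Its groups did not overlap, and mouse 2 again had the smallest gap, at 0.54. The difference of 1.52 (95% interval 0.36 to 2.69) missed the threshold (adjusted p = 0.0802), whereas the unblocked fit called it (adjusted p = 0.0277). Adam12 differed by 1.04 (adjusted p = 0.116), Adam15 by -0.26 (adjusted p = 0.537) and Adam28 by 0.18 (adjusted p = 0.690). Without mouse 3 the remaining Grem1- arrays of Adam12 were dim, and it was at least 1.02-fold higher. Adam33 was dim throughout.

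Adam11, Adam22 and Adam23 are ADAMs of neural tissue held to lack protease activity. Adam22 differed by 1.81 (95% interval 0.07 to 3.54, adjusted p = 0.128), with 8.90 in the Grem1+ array of mouse 1 against 5.26 and 5.42 in mice 2 and 3. It differed by 1.11 without mouse 1 and by 2.55 without mouse 3. Adam11 differed by 0.08 (adjusted p = 0.866), and Adam23 was not tested. Of 16 other Adam genes, most of them known from testis and epididymis, only Adam24 was tested, and it differed by 0.07 (adjusted p = 0.889).

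Among the 34 genes that were not tested, 27 were below log2 4 on every array of every probe set, and values ran from 1.7 to 5.23. Just outside the filter, with 2 arrays above log2 4, were Adam23, Adamtsl3 and Mmp17, which differed by 0.23, 1.03 and 0.22. Just inside, with 3 arrays, were Adam12, Adamtsl2, Mmp3, Mmp10 and Mmp16, of which Adam12 differed by 1.04. The other 4 were dim on every Grem1- array, and with values below log2 4 set to 4 they differed by 0.21, 5.12, 3.81 and 1.92.

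Several of the genes had more than 1 probe set above the filter, which gave a second reading of the same RNA. There were 11 such genes. Of the 11 genes higher in Grem1+, 8 had a single passing probe set and so no second passing reading. The other 3, Mmp2, Timp3 and Adamts5, were higher on every passing probe set, and Adam10 was lower on each of its 3. Outside the filter, a further probe set of Mmp23 differed by 0.40 and exceeded log2 4 on 2 arrays. One of Adamts3 differed by -0.09 and was dim on all arrays, and those of Mmp16 ranged from 0.35 to 2.70. Sizes varied: Adamts5 spanned 1.37 to 3.33, Timp3 2.94 to 5.37, Mmp14 1.14 to 2.54 and Adamts4 1.89 to 3.54. The 3 passing probe sets of Adam17 ranged from -0.18 to 0.11.

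**Figure D3:**
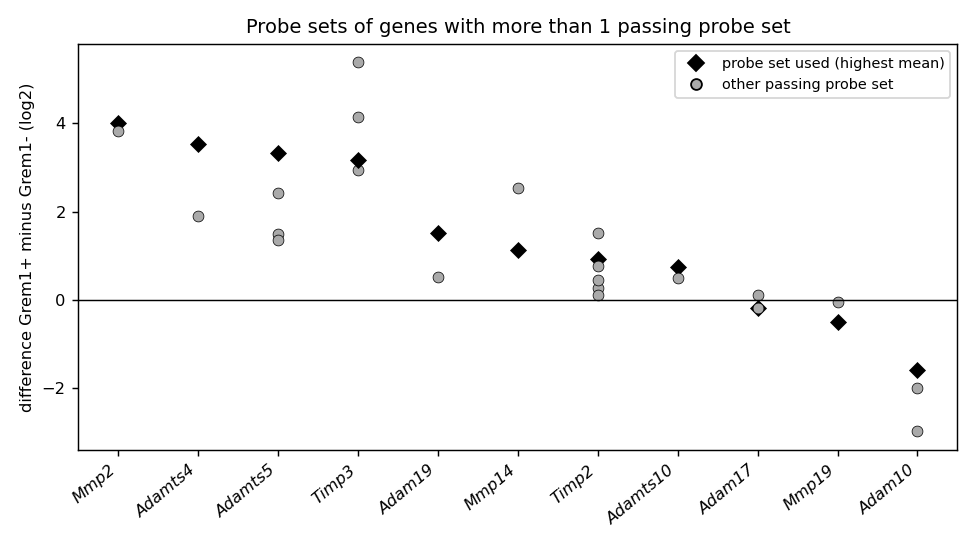
Difference between Grem1+ and Grem1- (log2) for each passing probe set of the 11 genes with more than 1; the black diamond is the probe set with the highest mean, used for the gene, and grey circles are the others. Adam10 lies below 0 on all its probe sets, Timp3 spans 2.94 to 5.37, and Adam17 lies close to 0.

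Genes that act with these proteases were read from the same fit. Of 11 measured genes of activators, partners and other inhibitors, 3 were higher and 1 lower, against a background of 11.7% higher and 8.51% lower over all genes. The median was 0.41 against 0.04 over all genes. Rarres1, which was called, and Spock2, which was not, entered the test only through their Grem1+ arrays and could only lie higher. Tspan33, a tetraspanin of the group that binds Adam10, averaged 9.72 in Grem1- and 4.57 in Grem1+, a difference of -5.15 (SE 0.56, adjusted p = 0.0146), or -4.48 without mouse 2. Tspan5 and Tspan14 of the same tetraspanin group differed by 0.16 and -0.14 and did not pass (adjusted p-values of 0.872 and 0.749). Bsg, an immunoglobulin-family surface protein known to induce MMPs, was higher by 2.88 (SE 0.31). Pcsk6, a proprotein convertase, was higher by 2.29 (SE 0.29), and Rarres1 was at least 8.58-fold higher. Furin, the convertase best known for cutting the prodomains of these families, differed by 0.30 (adjusted p = 0.528), and Reck, a membrane-anchored MMP inhibitor, by -0.29 (adjusted p = 0.640).

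Of 16 measured proteases of other classes, 5 were higher and 0 lower (background 11.7% and 8.51%), with a median of 1.55. They were the serine protease Fap (6.13, SE 0.51, and 5.49 without mouse 3), the secreted serine proteases Htra1 (3.98, SE 0.37), Htra3 (3.45, SE 0.37) and Htra4, which was at least 9.55-fold higher, and the astacin Tll1, at least 3.21-fold higher, or at least 1.67-fold without mouse 2. Tll1, Htra4 and Phex, which was not called, entered the test only through their Grem1+ arrays and could only lie higher. Dpp4, not called either, entered only through its Grem1- arrays. Fap is also on the list of fibroblast and tendon markers given above. Bmp1, the astacin that removes the C-propeptides of procollagens, differed by 2.43 (SE 0.78) and did not pass (adjusted p = 0.107). Its difference was 1.49 without mouse 1 and 3.33 without mouse 3.

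Of 12 measured genes in the list of serpins, cystatins and other protease inhibitors, 5 were higher and 3 lower (background 11.7% and 8.51%), with a median of 0.30. The largest changes included genes that are not inhibitors. Pcolce2 (5.04, SE 0.46) and Pcolce (4.18, SE 0.52) encode enhancers of procollagen C-proteinase. Serpinb6a, an intracellular serpin, was higher by 2.83 (SE 0.56), and by 2.10 without mouse 3. Spint2, a Kunitz-type inhibitor of serine proteases, and Slpi, an inhibitor of neutrophil elastase, were lower, with differences of -4.19 (SE 0.47) and -3.52 (SE 0.39). Cst7, the remaining lower gene, entered the test only through its Grem1- arrays and could only lie lower.

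Substrates were split by location. Of 16 measured matrix substrates, 8 were higher and 0 lower (background 11.7% and 8.51%), with a median of 1.28. The 5 largest were Comp (4.0, SE 0.29), Matn3 (3.46, SE 0.26), Acan, the gene of aggrecan (3.42, SE 0.35), Bgn (2.88, SE 0.30) and Ltbp1 (2.15, SE 0.25). Comp, Matn3 and Acan are also on the chondrocyte marker list given above. Versican, Vcan, differed by -0.85 (SE 0.40) and did not pass (adjusted p = 0.217). Of 11 measured membrane substrates of ADAMs, 1 was higher and 2 lower (background 11.7% and 8.51%), with a median of -0.18. Counts this small do not set the list apart from all genes. Cdh2, which was not called, entered the test only through its Grem1+ arrays and could only lie higher. Hbegf, the precursor of an EGF receptor ligand, was higher by 4.27 (SE 0.40), and Csf1r, the receptor of macrophage colony-stimulating factor, and Notch1 differed by -3.75 (SE 0.79) and -1.87 (SE 0.39). Csf1r was above log2 4 on a single Grem1+ array, that of mouse 2. Its difference was -2.54 with values below log2 4 set to 4, and without mouse 2 it was at least 7.98-fold lower on that scale. Csf1r is also on the list of monocyte and macrophage markers, of which 3 were measured and 2 were lower in Grem1+ (background 8.51%). Besides the blocked fits to 2 mice, 14 alternatives were run. The call of Csf1r was lost under 4 of them, and that of Notch1 also under 4, not all the same. Among the genes of the other lists, Tll1 lost its call under 4, Ltbp1 and Serpinb6a under 3, and Htra3 and Pcolce under 1.

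**Figure D4:**
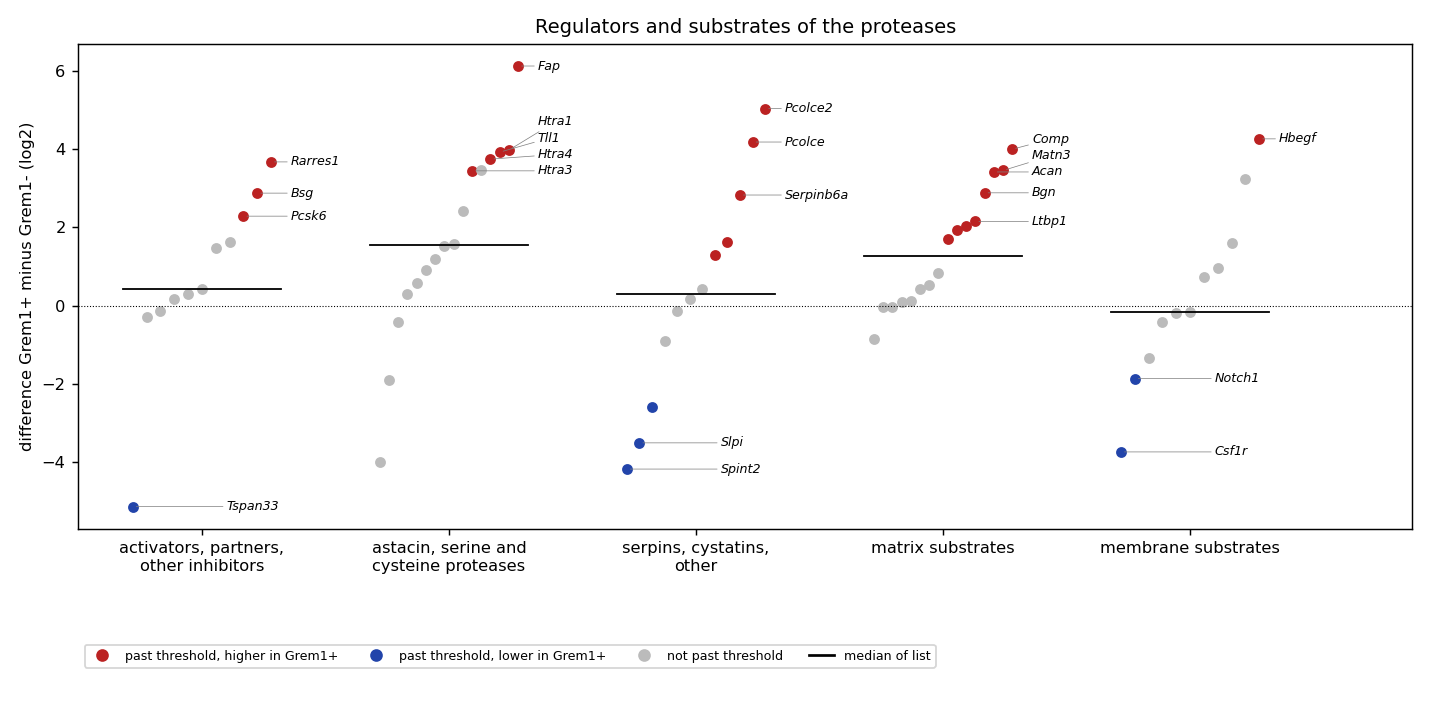
Difference between Grem1+ and Grem1- (log2) of the measured genes in 5 lists of regulators, other proteases, inhibitors and substrates; each point is a gene, red or blue where it passed the threshold, and black lines are list medians. Genes dim on every array of a group, such as Tll1, are drawn at their fitted value. Matrix substrates and other proteases have medians of 1.28 and 1.55, and the membrane substrates have a median of -0.18.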

How the data were processed

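RNA of 6 sorted fractions from 3 mice was hybridised to Affymetrix arrays. The deposited values fit a log2 scale, 1 per probe set. Per the submitters' processing notes, GCRMA was used; the version and options were not given in the sources used here. GCRMA corrects background by probe sequence and can compress differences between dim probe sets. Scanner files were not analysed here, and the number of arrays limits the precision.

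Of 45101 probe sets, 34945 had exactly 1 symbol in the platform annotation. Those above log2 4 on at least 3 arrays were kept, and the brightest stood for a gene (10151 genes). Grem1+ minus Grem1- was fitted with limma 3.58.1 in R 4.3.3 (lmFit, eBayes, mouse as a block, 2 residual and 2.1 prior degrees of freedom, two-sided, Benjamini-Hochberg over all genes, threshold 0.05), after the script was tested on simulated data. Per the design text, each mouse gave both samples. Deviations of same-numbered arrays correlated at 0.0142, 0.0737 and 0.0456 over genes, so for mice 1 and 2 the pairing rests on that text. The arrays of mouse 3 also shared high Xist, at 11.04 and 10.6, against at most 2.99 elsewhere. No array pair shared more than 0.00222% of its values.

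A "bound" ("at least") sets values below log2 4 to 4 and is used where every array of the lower group was dim; its values without 1 mouse were added after seeing the data. List medians were the same with such genes at their bounds. Values on all arrays are given for genes past the threshold, for TIMPs and for tested genes with a group mean of log2 8 or more. From each related list up to 5 called genes are named by size. Others named there (Tspan5, Tspan14, Furin, Reck, Bmp1, Vcan) were chosen after their values were seen. Spock2, Phex, Dpp4, Cst7 and Cdh2 are named because all arrays of a group were dim. The genes, classes and lists were chosen with earlier results of these data known. Promoter windows and gene order are from RefSeq (GRCm38.p6).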

Additional observations from a re-analysis of the deposited data

How the results depend on the processing

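Against 2055 genes called in all and 12 of the 33 protease and inhibitor genes, 1330 genes and 9 of 67 were called without the filter on dim probe sets. With the mouse as a block and any mouse left out, calls fell to 0 and 0, where 1 residual degree of freedom remains. Without the block and without mouse 1, 2 or 3, 1274, 1186 and 1294 genes and 9, 7 and 9 of the 33 were called. Without the replicate block but with all mice, 2543 genes and 14 of the 33 were called, Mmp23 was lost, and Adam19, Adam8 and Adamts4 were added. Under the other 9 alternatives (stricter filter, probe set choice, shared probe sets, normalization, floor, eBayes options) counts stayed within 1.5 times, and 11 to 14 of the genes were called. Adam17, which was not called, changed sign with its most variable probe set (0.11). With 3 mice the intervals of genes that were not called are wide, and levels below log2 4 are not resolved.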
